A study of Mus musculus with 4 samples.

Results

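The PGC-1 coactivators, the PPAR and ERR nuclear receptors and the factors that build mitochondria were examined in injured kidneys with and without tubular Apela. The group holds 10 genes of the 54078 features in the expression table, taken by gene name: Ppargc1a, Ppargc1b, Ppara, Ppard, Pparg, Rxra, Esrra, Esrrg, Tfam and Nrf1. Kidneys were taken at day 3 after both renal pedicles had been clamped for 30 min (bilateral ischemia-reperfusion, bI/R), so all groups carried the injury and none was sham-operated. Kidneys of ApelaKsp KO mice, in which floxed Apela is removed by Cre under the Ksp-cadherin promoter of renal tubular epithelial cells, were compared with kidneys of WT littermates, which carry the floxed Apela alleles without Cre. All mice were adult males, matched for age, and the strain is labelled C57BL/6 x 129S4/SvJae, although the methods describe a C57BL/6 background. Each group has 2 libraries, each from pooled RNA of 3 mice, and n = 2 counts pools and not animals.

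PPARs are nuclear receptors that sense fatty acids and their derivatives and bind DNA as pairs with a retinoid X receptor. PPARα drives genes of mitochondrial and peroxisomal fatty acid oxidation and is abundant in the proximal tubule, which lives on fatty acid oxidation and suffers when this is lost after ischemia. PGC-1α and PGC-1β bind no DNA themselves. They are recruited by PPARs, by the estrogen-related receptors (ERRs) and by nuclear respiratory factor 1, and through these they raise oxidative metabolism genes and Tfam, whose protein packages mitochondrial DNA and helps to start its transcription.

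The libraries held between 16045724 and 16927742 reads on genes. Levels are FPKM, fragments per kilobase of gene length scaled to a library total. This total, recovered from the values, was 16071739 and 17203609 with WT and 16727839 and 16237848 with KO. For WT pool 2 it was above the 16045724 reads on genes, and for each other pool it was below its own reads. The reason was not tested. Differences are on log2(FPKM + 0.5), which understates the change of low genes. The targeted gene Apela reached 5.27 and 4.57 FPKM with WT and 0.536 and 0.245 FPKM with KO, from 85 and 79 against 9 and 4 reads, and was lower in both KO pools (log2 difference -2.62, adjusted p = 0.466, limma). The design text of the series names adipose tissue as the RNA source, whereas its title and sample labels name the kidney. The tubular gene Umod had an FPKM from 788 to 1133, and the listed skeletal muscle markers summed to at most 1.02 FPKM. The adipocyte genes Ucp1 and Adipoq were at 0 in 4 and in 3 of the 4 libraries. They belong to a list of 20 PPARγ target and adipose genes, of which 12 reached a mean FPKM of 0.5. Among these 12 were Fabp4 at 10.2 to 14.6, Lpl at 19.4 to 41.9 and Cd36 at 71.3 to 301 FPKM. In bulk kidney RNA, fewer cells of a type and less RNA per cell cannot be told apart. One pool stood apart in its cell markers: the 10 macrophage markers summed to 452 FPKM in WT pool 2 against 190 in WT pool 1 and 248 and 221 in the KO pools.

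With limma across all genes, 0 of the 9 regulators tested passed an adjusted p-value under 0.05, and the share over all 15414 genes tested was 0%. Pparg had a mean FPKM below the minimum of 0.5 and was not tested. At an unadjusted p under 0.05, limma gave 2 of the 9, Ppara and Ppargc1b, both higher in the KO pools, where the background was 6.32% of all genes in either direction with 3.29% higher and 3.03% lower in KO. These were also the 2 of 9 whose groups did not overlap, where 37.8% of all genes did not overlap and 19.7% had the KO pools on top. The other 7 tested regulators had overlapping pools and differences from -0.19 to 0.036.

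**Figure D1:**
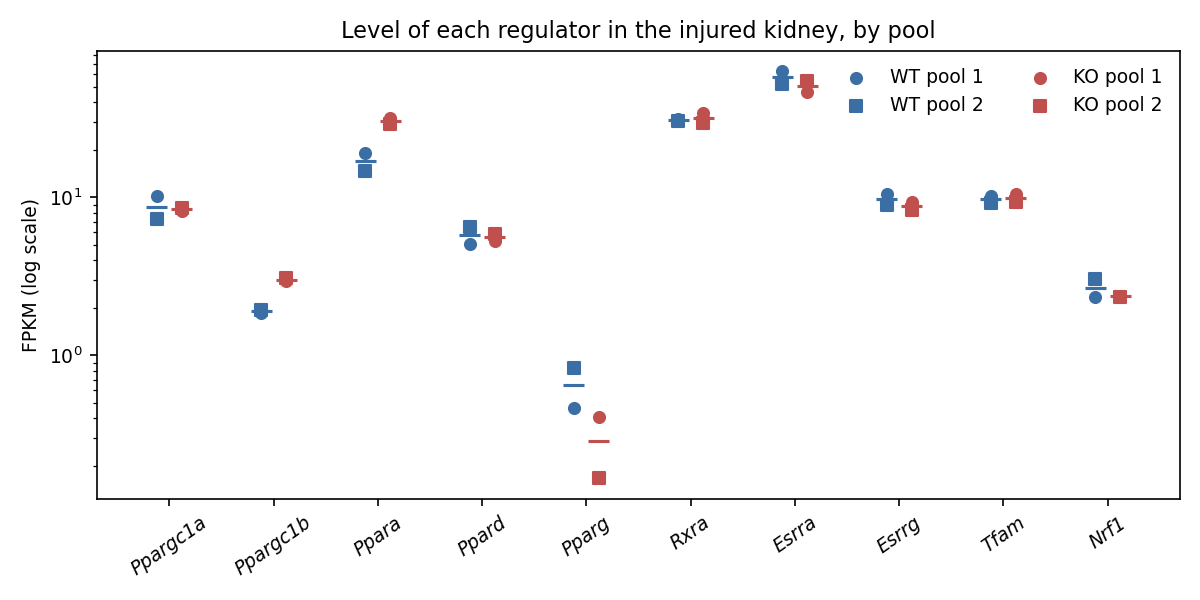
FPKM of the 10 regulators (logarithmic axis) in each of the 2 WT pools (blue) and 2 KO pools (red), with horizontal bars at the group means. Ppara (WT mean 16.9, KO mean 30.5) and Ppargc1b (1.90 and 3.00) are separated with KO higher. Pparg, under 1 FPKM and not tested, is separated with KO lower, and the other 7 overlap.

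Ppargc1a encodes PGC-1α, the inducible coactivator of mitochondrial biogenesis. The gene spans 51454250 to 51567726 of chromosome 5 (GRCm38, minus strand). WT pools had 10.2 and 7.25 FPKM against 8.22 and 8.55 in KO pools, from 822 to 1082 reads. The KO values fell between those of the WT pools. The log2 difference was -0.037 (SE 0.19, adjusted p = 0.978, limma with Benjamini-Hochberg adjustment), with 95% limits of -0.53 and 0.45. The sign depended on WT pool 1, without which the difference was 0.20.

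Ppargc1b encodes PGC-1β, the related coactivator that supports basal mitochondrial gene expression, and spans 61298136 to 61400431 of chromosome 18 on the minus strand. FPKM values were 1.86 and 1.94 for WT against 2.94 and 3.07 for KO. The reads behind these values were 119 and 133 in WT and 196 and 199 in KO. Exact 95% Poisson intervals, which cover counting error only, were 1.54 to 2.22 and 1.62 to 2.30 FPKM for WT. For KO they were 2.54 to 3.38 and 2.66 to 3.53, so no WT interval overlapped a KO interval. The spread within each group was narrower than these intervals, so it understates the counting error. Means were 1.90 ± 0.0579 for WT and 3.00 ± 0.0954 for KO (SD of 2 pools each), a ratio of 1.58. This gave a log2 difference of 0.55 (SE 0.13, unadjusted p = 0.0110, adjusted p = 0.732, limma). Leaving out single pools gave 0.52 to 0.58, at unadjusted limma p-values from 0.0350 to 0.0692, with 0.0524 without KO pool 1 and 0.0692 without KO pool 2.

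The proportion of the coactivators to each other separated the groups. The ratio of Ppargc1a to Ppargc1b FPKM was 5.50 and 3.74 with WT and 2.80 and 2.78 with KO. Ppargc1a was the more abundant coactivator in all 4 libraries. These ratios are a description, and no test was made of them. The third family member, Pprc1, had an FPKM of 4.65 and 6.09 in WT and of 4.56 and 4.66 in KO, with overlapping pools.

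Mettl26, Pnkd and Gcsh had the profiles over the 4 libraries nearest to that of Ppargc1a, among 7900 genes whose mean FPKM reached 5. Their root mean square differences from the centred Ppargc1a profile were 0.0141, 0.0279 and 0.0284 on the log2 scale. In all, 30 genes lay within 0.05, and 4 libraries leave little to tell profiles apart.

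Ppara encodes PPARα, the receptor that switches on fatty acid oxidation. The gene spans 85734983 to 85802819 of chromosome 15 (GRCm38, plus strand), and no exon of another annotated gene overlaps its exons in GENCODE M21. In WT it reached 19.0 and 14.8 FPKM, against 31.9 and 29.1 in KO. The reads were 1174 and 976 in WT and 2050 and 1812 in KO, so counting error was small. The groups stood well apart, with means of 16.9 ± 3.01 for WT and 30.5 ± 2.02 for KO (SD of 2 pools each), a ratio of 1.80. On the log2 scale, KO minus WT was 0.84 (SE 0.16, unadjusted p = 0.00433, adjusted p = 0.650, limma with Benjamini-Hochberg adjustment), with 95% limits of 0.42 and 1.27. By unadjusted p it ranked 100 among the 15414 genes. Leaving out single pools gave values from 0.66 to 1.02, at unadjusted limma p-values from 0.00336 to 0.0284, and the adjusted p ranged from 0.298 to 0.992 over all alternatives.

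The promoter of Ppara is shown because this receptor had the largest difference of the tested regulators, and it holds a full binding motif of another of them, nuclear respiratory factor 1. The RefSeq window of 300 bases (around the RefSeq start, GRCm38.p6, plus strand) is chr15:85735526-85735825. It lies inside the gene span given above, which begins further upstream at 85734983. Capitals mark the motif GCGCATGCGC, which is its own reverse complement and begins 31 bases before the RefSeq start.

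Ppara: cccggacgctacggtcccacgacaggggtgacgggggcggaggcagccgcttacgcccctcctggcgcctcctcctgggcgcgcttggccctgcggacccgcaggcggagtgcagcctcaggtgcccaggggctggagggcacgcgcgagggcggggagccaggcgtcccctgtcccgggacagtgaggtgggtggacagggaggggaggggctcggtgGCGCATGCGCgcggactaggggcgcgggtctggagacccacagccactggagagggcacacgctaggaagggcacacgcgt

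This motif was found in 0.971% of all 32851 promoter windows of the same length, in 2.2% of the 10405 tested genes with an entry, and in 1 of the 16 windows of the 9 regulators with an entry. Of the other motifs searched on both strands, the ERR motif AAGGTCA was found in 1 of the 16 windows, a downstream start of Rxra (4.72% of all windows). The PPAR-RXR motif AGGTCANAGGTCA, a direct repeat whose AGGTCA unit the ERR motif also contains, was found in 0 of the 16 (0.0396% of all windows). These are matches of letters, not binding sites.

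**Figure D2:**
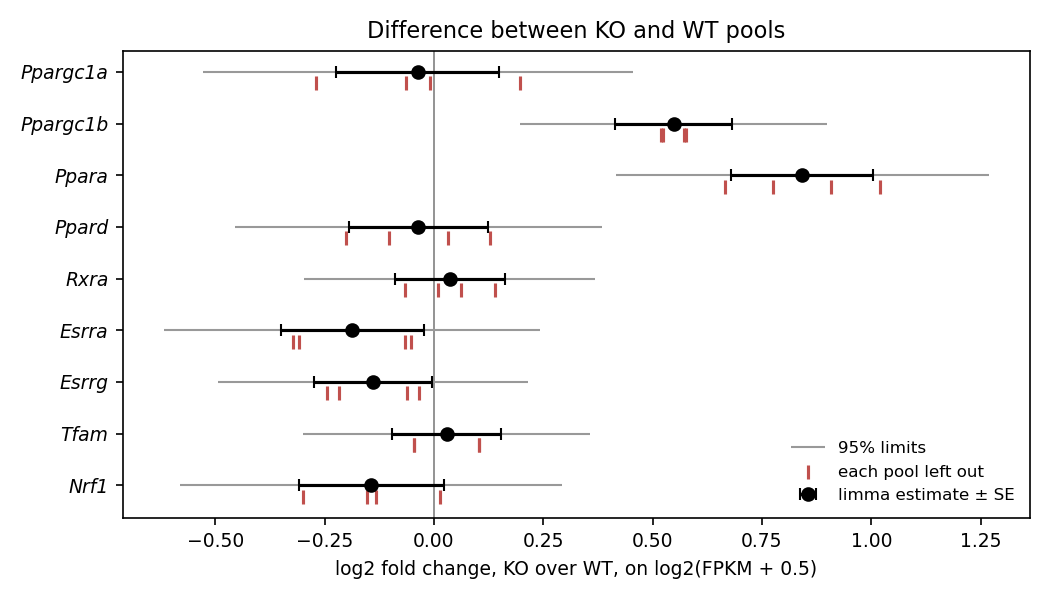
Log2 difference between KO and WT pools (x axis, on log2(FPKM + 0.5)) for the 9 tested regulators, with black points and bars for the limma estimate ± SE, grey lines for 95% limits and red ticks for the value with each pool left out. Ppara (0.84) and Ppargc1b (0.55) have limits above 0, and the limits of the other 7 span 0.

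Ppard encodes PPARδ, the widely expressed family member (chromosome 17, 28232754 to 28301469, plus strand). Levels were 5.07 and 6.49 FPKM for WT and 5.31 and 5.88 for KO, with both KO values between the WT values. The log2 difference was -0.036 (SE 0.16, adjusted p = 0.976, limma), with 95% limits of -0.45 and 0.38. The ratio of Ppara to Ppard was 3.76 and 2.28 with WT and 6.02 and 4.95 with KO, so PPARα transcripts outnumbered those of PPARδ per length in all 4 libraries. With the M21 exon length of Ppard, which is longer than the deposited one, and the same reads, this ratio was 6.10 and 3.70 with WT and 9.77 and 8.03 with KO.

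Pparg encodes PPARγ, the adipocyte receptor (chromosome 6, 115360951 to 115490399, plus strand), and was the least abundant of the 10 regulators. WT pools had 0.464 and 0.827 FPKM against 0.405 and 0.167 in KO pools, from 22, 42, 20 and 8 reads. Both KO pools lay below both WT pools, as they did for 18.1% of all genes tested. The exact 95% Poisson intervals, which cover counting error only, were 0.291 to 0.702 and 0.596 to 1.12 FPKM for WT and 0.247 to 0.625 and 0.0720 to 0.329 for KO. Of the 4 combinations of a WT with a KO pool, all but WT pool 2 with KO pool 2 had overlapping intervals. Between the groups the log2 difference was -0.54, with an adjusted p of 0.824 in the limma fit without a filter on low values.

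Rxra encodes retinoid X receptor α, the partner with which PPARs bind DNA (chromosome 2, 27676440 to 27762957, plus strand). FPKM values were 31.4 and 30.3 for WT against 34.0 and 29.4 for KO. The KO pools lay on either side of the WT pools, and the log2 difference was 0.036 (SE 0.13, adjusted p = 0.967, limma), with 95% limits of -0.30 and 0.37. A value this near 0 turned negative with 2 other scalings. Per unit length, Ppara reached 0.606 and 0.489 of the Rxra level for WT and 0.939 and 0.989 for KO. Of the other retinoid X receptors, Rxrb had an FPKM from 14.8 to 18.9 with overlapping pools, and Rxrg reached at most 0.271.

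Esrra encodes ERRα, the orphan receptor through which PGC-1 proteins reach most genes of the respiratory chain, and had the highest FPKM of the 10 at its deposited length (chromosome 19, 6910977 to 6921813, minus strand). In WT it reached 63.0 and 52.1 FPKM, against 46.2 and 54.7 in KO. KO pool 2 lay between the WT pools and KO pool 1 below them. This gave a log2 difference of -0.19 (SE 0.16, adjusted p = 0.854, limma), with 95% limits of -0.62 and 0.24. With the longer M21 exon length and the same reads, its mean over the libraries was 31.2 FPKM in place of 54.0, close to the 31.3 of Rxra and above Rxra in 2 of the 4 libraries. The difference between the groups was negative in every fit, between -0.32 and -0.052 with each pool left out. The exons of Esrra overlap those of Trmt112 on the opposite strand over 73 bases, and whether strand was used in counting is not given in the sources used here.

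Esrrg encodes ERRγ, an ERR of highly oxidative tissues (chromosome 1, 187608791 to 188214885, plus strand). Levels were 10.5 and 9.0 FPKM for WT and 9.29 and 8.29 for KO, so the groups overlapped. On the log2 scale, KO minus WT was -0.14 (SE 0.13, adjusted p = 0.863, limma), with 95% limits of -0.49 and 0.22. The ratio of Esrra to Esrrg was between 4.97 and 6.60 in the 4 libraries, and between 2.88 and 3.82 with the M21 exon length of Esrra. The remaining family member Esrrb had an FPKM of 4.29 and 2.97 in WT and of 4.72 and 5.37 in KO, a log2 difference of 0.44 (adjusted p = 0.797, limma).

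Tfam encodes mitochondrial transcription factor A. The gene spans 71225464 to 71238280 of chromosome 10 (GRCm38, minus strand). WT pools had 10.2 and 9.18 FPKM against 10.5 and 9.38 in KO pools, and the groups interleaved. The log2 difference was 0.029 (SE 0.12, adjusted p = 0.975, limma), with 95% limits of -0.30 and 0.36, and it was -0.040 with scaling to total reads. Tfam is a textbook target of GABP, the ETS factor also called nuclear respiratory factor 2, and 1 GABP motif (CCGGAAG, in capitals) begins 47 bases before its RefSeq start. The motif is shown with its surroundings at chr10:71238073-71238102 of GRCm38.p6, minus strand, which lies inside the gene span given above.

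Tfam: cctgccgcggaCCGGAAGtccgggcttccc

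The GABP motif was found in 8.86% of all promoter windows and in 1 of the 16 windows of the regulators. Of the 10405 tested genes with an entry, 19.3% held it. Among genes with an entry in the list of mitochondrial DNA maintenance and transcription factors, 10 of 19 held it. So did 8 of 17 import and dynamics genes and 8 of 26 ERR targets. In the other regulatory lists it was held by 3 of 27 PPARα targets, 1 of 15 PPARγ targets, 2 of 15 coregulators and 2 of 12 other nuclear receptors. No test was made on these counts.

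Nrf1 encodes nuclear respiratory factor 1, which activates respiratory chain genes and is unrelated to the NFE2-like factors of similar name (chromosome 6, 30047988 to 30153458, plus strand). FPKM values were 2.34 and 3.02 for WT against 2.38 and 2.34 for KO. WT pool 1 and both KO pools lay together and WT pool 2 above them, without which the log2 difference was 0.014. With all pools it was -0.14 (SE 0.17, adjusted p = 0.886, limma), with 95% limits of -0.58 and 0.29.

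By mean level over the 4 libraries at the deposited gene lengths, the order was Esrra, Rxra, Ppara, Tfam, Esrrg, Ppargc1a, Ppard, Nrf1, Ppargc1b and Pparg. Neighbours kept their order in all 4 libraries at 6 of the 9 steps. Tfam and Esrrg, and Esrrg and Ppargc1a, kept it in 3 of 4, and Nrf1 and Ppargc1b in 2 of 4. Nrf1 was above Ppargc1b in both WT pools and below it in both KO pools.

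Target genes of the receptors were read as a second readout. These lists were chosen with earlier results of the data known. Of 34 tested PPARα targets, 33 were higher in KO, with a median log2 difference of 0.65 against 0.0071 over all genes tested. Both KO pools lay above both WT pools for 21 of the 34 (61.8%, background 19.7%), 3 of the 34 had an unadjusted p under 0.05 in limma and higher values in KO (background 3.29%), and 0 passed after adjustment. The group covers peroxisomal and mitochondrial fatty acid oxidation and lipid droplet coating.

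Plin2 encodes the lipid droplet coat protein perilipin 2. In WT it reached 78.4 and 66.5 FPKM, against 187 and 206 in KO, a ratio of 2.71. This gave a log2 difference of 1.44 (SE 0.16, unadjusted p = 0.000379, adjusted p = 0.466, limma). The gap between the groups was far wider than the spread within them.

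Ehhadh, the bifunctional enzyme of peroxisomal fatty acid oxidation, had an FPKM of 543 and 137 in WT and 597 and 687 in KO. The KO pools were the higher ones, and WT pool 2 was far below WT pool 1. Acot2, a mitochondrial acyl-CoA thioesterase, had an FPKM of 32.1 and 18.2 in WT and 51.4 and 42.2 in KO. Acadvl, the very long chain acyl-CoA dehydrogenase, had 70.7 and 48.5 in WT and 94.2 and 79.8 in KO.

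Some targets overlapped between the groups. Cyp4a14, a fatty acid omega-hydroxylase, had an FPKM of 800 and 122 in WT and of 992 and 529 in KO, so KO pool 2 lay between the WT pools. Slc27a2, a fatty acid transport protein and acyl-CoA synthetase, had 616 and 457 in WT and 552 and 490 in KO, and was the 1 tested target that was lower in KO.

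The size of this shift depended on WT pool 2, which was the lowest of the 4 libraries for 33 of the 34 targets, against 30.7% of all genes tested. Without WT pool 2 the median was 0.20, with 28 of 34 higher, and without WT pool 1 it was 1.19, with 34 of 34 higher. Against WT pool 1 alone, both KO pools were higher for 21 of the 34 targets, where 34.4% of all genes were. For Ppara itself the difference was 0.66 without WT pool 2 and 1.02 without WT pool 1.

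**Figure D3:**
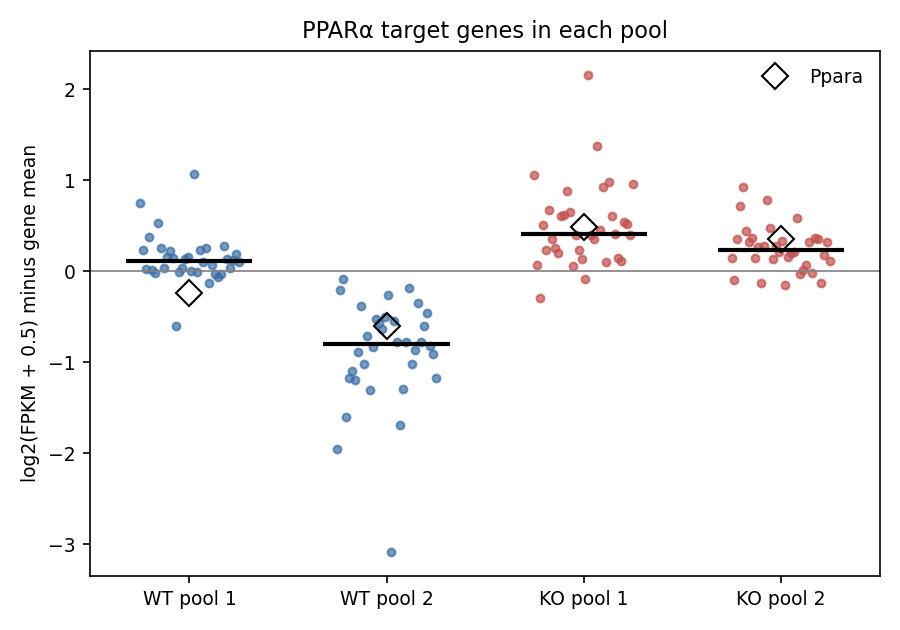
Log2(FPKM + 0.5) of 34 PPARα target genes in each pool, minus the mean of each gene over the 4 libraries. Dots are genes, black bars the medians (0.11 and -0.80 in WT pools 1 and 2, 0.41 and 0.24 in KO pools 1 and 2) and open diamonds are Ppara, and WT pool 2 lies lowest for the targets and for Ppara.

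Markers of cell types and injury were read in the same fit, and 0 of them passed after adjustment. The 12 proximal tubule markers had a median log2 difference of -0.24, with 8 of 12 lower in KO. This median was 0.0013 without WT pool 1 and 0.030 without KO pool 1. Both KO pools lay below both WT pools for 5 of the 12 (background 18.1%) and above them for 2 (background 19.7%). In limma, 2 of the 12 had an unadjusted p under 0.05 and lower values in KO (background 3.03%). The summed FPKM of the 12 was 11580 and 6360 with WT and 7485 and 11610 with KO. Of these sums Kap, an androgen-regulated proximal tubule gene, made up 69.0% to 80.7%. Without Kap the sums were 2605 and 1973 with WT and 1447 and 2297 with KO. Slc34a1, the proximal phosphate transporter, had 898 and 689 in WT and 365 and 609 in KO. Slc22a6, an organic anion transporter, had 233 and 141 in WT and 236 and 383 in KO. Of the 10 macrophage markers, 8 were lower in KO, with a median of -0.51 that was 0.075 without WT pool 2. Of the 12 proximal tubule and 10 macrophage markers, 0 were at 0 in all libraries. The injury marker Lcn2 had an FPKM of 133 and 95.2 in WT and of 249 and 273 in KO, and Havcr1 had 210 and 393 in WT and 249 and 105 in KO. The injury list had a median of 0.11 with 6 of 10 higher, the 8 distal nephron markers one of 0.0052 with 4 higher, and the endothelial list one of 0.22 with 8 of 8 higher. Without single pools these medians ran from -0.15 to 0.18, from -0.14 to 0.33 and from 0.050 to 0.33. Both KO pools lay above both WT pools for 4 of the 10 injury, 0 of the 8 distal and 4 of the 8 endothelial markers (background 19.7%). Of the endothelial markers, 1 had an unadjusted p under 0.05 in limma and higher values in KO (background 3.29%). Of the injury markers, 2 did so with higher and 1 with lower values in KO. The part of cell makeup and of injury in the difference of Ppara and its targets was not tested.

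Of the 12 tested PPARγ target and adipose genes, 11 were higher in KO, with a median of 0.44 and 3 with an unadjusted p under 0.05 in limma and higher values in KO (background 3.29%). Both KO pools lay above both WT pools for 3 of the 12, a share of 25%, near the background of 19.7%. The median was 0.16 without WT pool 2 and 0.14 without KO pool 1. Cidec, a lipid droplet protein, had an FPKM of 1.37 and 0.282 in WT and of 7.92 and 2.79 in KO, a log2 difference of 2.12 (adjusted p = 0.785, limma). Pnpla2, the main triglyceride lipase, had 63.3 and 40.7 in WT and 112 and 77.9 in KO. Cd36, a fatty acid receptor, had 160 and 71.3 in WT and 301 and 146 in KO, with overlapping pools. The adipokine genes of the list, Adipoq, Lep, Retn and Cfd, were under the filter.

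Targets of ERRα and PGC-1 act in the tricarboxylic acid cycle and respiratory chain. Of 33 tested, 26 were higher and 7 lower in KO, with a median of 0.11, which became -0.036 without WT pool 2 and -0.00021 without KO pool 2. Both KO pools lay above both WT pools for 5 (15.2%, background 19.7%) and below them for 1 (background 18.1%). Atp5b, the catalytic ATP synthase subunit, had an FPKM of 596 and 494 in WT and 522 and 617 in KO. Cycs, which encodes cytochrome c, had 67.8 and 44.9 in WT and 69.3 and 72.7 in KO, a log2 difference of 0.36 (adjusted p = 0.804, limma). Uqcrc1, a core protein of complex III, was the 1 gene of the 33 with an unadjusted p under 0.05 in limma, and was lower in KO (background 3.03%).

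The proteins that maintain and transcribe mitochondrial DNA, the step that Tfam serves, had a median of -0.029 over 21 tested genes, 9 higher and 12 lower. Their differences ran from -0.21 to 0.25, and 0 had an unadjusted p under 0.05 in limma. Lonp1, the matrix protease that degrades TFAM, had an FPKM of 59.7 and 65.0 in WT and 49.1 and 59.1 in KO. Polg2, the accessory subunit of the mitochondrial DNA polymerase, had 1.73 and 1.60 in WT and 2.14 and 2.01 in KO. The groups did not overlap for 7 of the 21, with KO on top for 3 and WT on top for 4 (backgrounds 19.7% and 18.1%). The 13 mRNAs of the mitochondrial genome had a median of 0.016, with 7 higher and 6 lower, and it ran from -0.18 to 0.35 with single pools left out. Their most abundant member, mt-Co1, had 14590 and 10970 FPKM in WT and 14330 and 15420 in KO, and overlapped. The 19 tested genes of mitochondrial import and dynamics had a median of 0.077 (0.011 without WT pool 2 and 0.16 without KO pool 1), with 17 higher, and 0 had an unadjusted p under 0.05 in limma. Timm23, a channel of the inner membrane, had 26.6 and 26.3 in WT and 31.8 and 31.6 in KO.

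Coregulators and upstream kinases and deacetylases showed no common direction. Of 19 tested, 7 were higher and 12 lower, the median was -0.019 (-0.062 to 0.027 with single pools left out), and 0 had an unadjusted p under 0.05 in limma. Prkaa2, a catalytic subunit of the kinase AMPK that activates PGC-1α, had an FPKM of 25.8 and 18.9 in WT and 27.3 and 26.4 in KO. Sirt1, which deacetylates PGC-1α, had 4.26 and 4.41 in WT and 3.61 and 3.70 in KO, a log2 difference of -0.22 (adjusted p = 0.798, limma). Ncor1, a corepressor of these receptors, had 16.6 and 16.5 in WT and 20.6 and 17.3 in KO.

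Among 11 other tested nuclear receptors, 8 were higher and 3 lower, with a median of 0.061 that was 0.13 without WT pool 1. Nr1h3, which encodes liver X receptor α, was the 1 of the 11 with an unadjusted p under 0.05 in limma, and was lower in KO (background 3.03%). Liver X receptors, like PPARs, pair with retinoid X receptors. WT pools had 16.4 and 16.0 FPKM against 11.5 and 12.5 in KO pools, a log2 difference of -0.42 (adjusted p = 0.757, limma). Hnf4a, the proximal tubule and liver identity factor, had an FPKM from 136 to 154 in the 4 libraries, with overlapping groups.

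**Figure D4:**
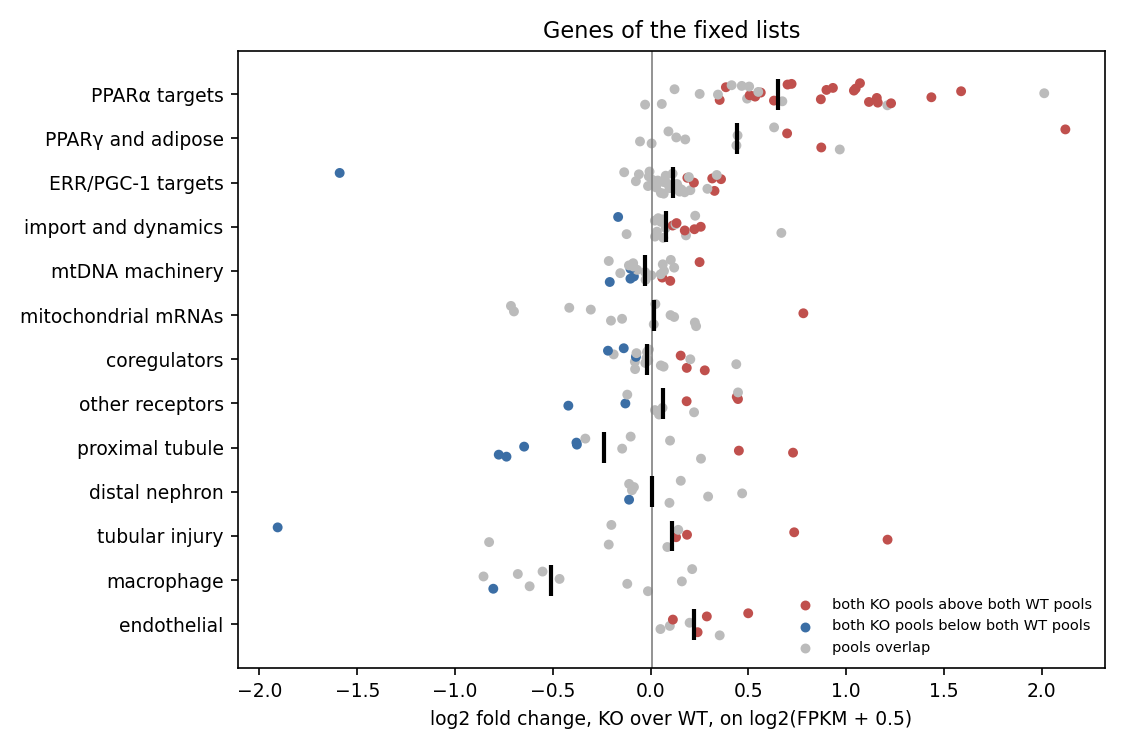
Log2 difference between KO and WT pools (x axis, on log2(FPKM + 0.5)) for the tested genes of 13 lists, with a black bar at each median and a grey line at the median over all genes. Red and blue dots have both KO pools above or below both WT pools, and grey dots overlap. With all pools, PPARα targets have the highest median (0.65), which was 0.20 without WT pool 2, below the 0.33 of the endothelial list, and mitochondrial DNA machinery lies near 0 (-0.029).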

How the data were processed

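RNA-sequencing of poly(A) RNA from 4 kidney pools was analysed. Gene-level FPKM for all libraries came as 1 table deposited by the authors. The submitters' processing notes list HISAT2 2.0.5, mm10 and GRCm38.p6, and the counting tool, its strand setting and the annotation are not given in the sources used here. Multiplying FPKM by gene length recovered whole reads for 100% of nonzero values (tolerance 0.01). Positions matched GENCODE M21 in 97.1% of 53620 shared genes. For Ppard and Esrra the deposited gene length (4631 and 2539 bases) was shorter than the M21 exons (7514 and 4387), and for the other 8 it was the same.

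Differences between KO and WT were estimated with limma 3.58.1 in R 4.3.3 on log2(FPKM + 0.5) (trended eBayes, no covariates, two-sided), keeping 15414 genes whose mean FPKM reached 0.5, and p-values were adjusted by Benjamini-Hochberg over all of them. The deposited values are FPKM, and no count test was used for the main result. Reads recovered from them were used in the voom alternative. The 95% limits come from the same moderated fit. The p-values measure the spread between pools, not between animals. The 10 regulators and all lists were chosen with earlier results of these data known. Named genes were the 10 regulators, Apela, up to 4 genes per list by highest mean FPKM and 4 by smallest p, and the 3 nearest to Ppargc1a, and the remaining names (Pprc1, Rxrg, Uqcrc2 and the adipocyte genes) were picked after their values were seen. Motifs were searched in RefSeq promoter windows (GRCm38.p6). The fit was tested on simulated data. Python 3.11.15 with numpy 2.4.6, pandas 2.3.3, scipy 1.17.1 and matplotlib 3.10.9 was used. The fit was repeated with other pseudocounts (0.1 or 1), without the filter or with a minimum of 1, with quantile or total-read scaling, on protein-coding genes, with voom weights from recovered reads, with replicate blocking, without the variance trend, and without each pool. Levels of Ppard and Esrra at the M21 length were added after seeing the data. Some listed genes are not reported here by name.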

Additional observations from a re-analysis of the deposited data

How the results depend on the processing

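With limma, 0 genes and 0 of the regulators passed an adjusted p under 0.05 in the reported fit (974 genes at an unadjusted p under 0.05) and in each of the 14 alternatives, voom weights included (970 at an unadjusted p). The count at an unadjusted p was 1538 without a filter on low values, where more genes were tested, and from 687 to 1720 with each pool left out. Regulators at an unadjusted p numbered 2 in all alternatives that kept the 4 pools, and 1 to 2 with a pool left out, since Ppargc1b was lost without either KO pool. Where a pool is left out, the lone pool is assumed to vary like the other group. Ppara and Ppargc1b were higher in KO in all 14 alternatives.

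The log2 difference of Rxra was -0.024 with quantile normalization and -0.035 with total-read scaling, and that of Tfam -0.040 with the latter. Total-read scaling shifts all genes alike, and the median of all genes went from 0.0071 to -0.057. For quantile normalization the cause was not tested. With each pool left out, the range was -0.27 to 0.20 for Ppargc1a, -0.20 to 0.13 for Ppard, -0.066 to 0.14 for Rxra, -0.045 to 0.10 for Tfam and -0.30 to 0.014 for Nrf1. The pools share replicate numbers only: the correlation of same-numbered deviations was -0.0017 across genes, and a replicate block left 0 genes past adjustment and 932 had an unadjusted p under 0.05. Pparg had 8 to 42 reads. Without single pools, the medians of the coregulator, ERR target, mitochondrial DNA, mitochondrial mRNA and proximal, distal, injury and macrophage marker lists changed sign, while those of PPARα targets (0.20 to 1.19), PPARγ targets (0.14 to 0.92), nuclear receptors, import and endothelial genes did not. With total-read scaling the medians of nuclear receptors (-0.010), mitochondrial mRNAs (-0.057) and distal markers (-0.066) turned negative, and with quantile normalization those of mitochondrial mRNAs (-0.033), distal (-0.068) and injury markers (-0.053). At the M21 exon length the mean FPKM was 31.2 for Esrra and 3.50 for Ppard, an alternative chosen after seeing the data.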

Other observations

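Levels of some listed genes stood apart from their own group. Uqcrc1, a core subunit of complex III, had an FPKM of 6.41 and 13.5 in WT and of 2.44 and 3.11 in KO (log2 difference -1.59, adjusted p = 0.708, limma), while its partner Uqcrc2 had 106 and 90.8 in WT and 102 and 106 in KO, and no exon of another gene in GENCODE M21 overlaps Uqcrc1. Among mitochondrially encoded mRNAs, mt-Co2 had an FPKM of 260 and 244 in WT and 277 and 678 in KO, and mt-Co3 had 323 and 85.8 in WT and 187 and 83.0 in KO, against 10970 to 15420 for mt-Co1. How reads that fit several loci were counted is not given in the sources used here, and the reason for these levels was not tested.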
